A study of Mus musculus with 24 samples.

Results

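The genes described here encode voltage-gated sodium and calcium channels and potassium channels, together with their auxiliary subunits. They were chosen by symbol alone, as protein-coding rows named Kcn, Scn, Cacna1, Cacna2d, Cacnb or Cacng followed by a member number or letter, without Kcnj11, Cacna1c and Cacna1d. That rule found 129 of the 40173 genes in the table, of which 108 passed the filter on low counts and 21 did not. The 129 comprise 40 voltage-gated, 14 inward-rectifier, 14 two-pore-domain and 8 calcium- or sodium-activated potassium channel genes, 15 potassium channel auxiliary genes, 10 sodium alpha and 4 sodium beta subunit genes, and 8 alpha1, 4 alpha2delta, 4 beta and 8 gamma calcium channel genes.

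The study asked what the diet of the mother does to islet progenitors, in mice in which the coding part of Neurog3 (Ngn3) is replaced by eGFP. Neurog3 is the transcription factor that starts the endocrine programme in pancreatic progenitors, so eGFP marks cells in which its promoter is active. eGFP-positive cells were sorted from the pancreas of E15.5 embryos, with males and females pooled, and their RNA was sequenced. Dams were 6 weeks old, carried 1 eGFP allele and ate a high-fat diet (HFD), a low-protein diet (LPD) or a normal diet (ND) for 2 weeks before mating to males on the normal diet and until collection.

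Titles name 4 mutant and 3 control libraries on ND, 3 mutant and 3 control on HFD, and 4 mutant and 4 control on LPD, as well as 1 mutant and 1 control library of eGFP-positive hypothalamic cells from ND. Every library thus comes from embryos with at least 1 eGFP allele, the controls included. The series text says that embryos with 2 eGFP alleles, Ngn3eGFP/eGFP, yield cells that have not committed, and embryos with 1, Ngn3eGFP/+, yield committed endocrine cells. The genotype field of the samples runs the other way, with Ngn3eGFP/eGFP under the control titles and Ngn3eGFP/+ under the mutant titles. Neurog3 measured 6.01 to 22.98 CPM (counts scaled to library size) in the 11 libraries titled mutant, against 85.01 to 205 CPM in the 10 titled control, so the titles were kept and the genotype field was not. The sources used here do not give whether replicate libraries stand for different litters, so a p-value compares groups with the spread among these libraries, which may be technical. Between mutant LPD 1 and 2, counts differed by a chi-square per degree of freedom of 4.7. Other pairs of mutant LPD libraries gave 25.27 to 57.87. Mutant HFD 1 and 2 gave 4.391, against 18.34 and 17.29 for their pairs with mutant HFD 3. All were treated as separate libraries, so if such pairs are technical repeats, SD and p-values here may be too small.

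Electrically excitable cells fire when sodium and calcium channels open on depolarization, and potassium channels return the membrane to rest. In islet endocrine cells, closure of potassium channels that sense ATP depolarizes the membrane, voltage-gated calcium channels then admit the calcium that triggers hormone release, and delayed-rectifier potassium channels end each action potential. Auxiliary subunits set how many channels reach the membrane and how fast they open and close, and epithelial cells use another set of potassium channels to drive ion and fluid transport.

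Total counts ran from 17922240 to 44688814 over the 21 pancreatic libraries. Mutant ND 2 and 3 and control ND 2 stood apart, with over 70% duplicate reads and 66.9%, 33.4% and 32.7% of their counts on the RNA gene Gm26917, and mutant ND 2 had counts for 77 of the 129 genes where the other 20 pancreatic libraries had 106 to 125. The list of 14 endocrine markers summed to 48.8 to 454 CPM in mutant and 2274 to 9368 CPM in control libraries, and 14, 11 and 11 of its 14 genes fell on ND, HFD and LPD. Mutant LPD 1, LPD 2 and HFD 1 had the insulin gene Ins2 at 94.9, 102 and 24.1 CPM of total counts, against at most 1.64 CPM in the other 8 mutant libraries. The source of this RNA was not tested.

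Promoters are shown for 4 of the genes, since the data turn on genes that moved together and on a pair of neighbours that did not. Each is the 300 bases from 250 before to 50 after the start of the gene in RefSeq on build GRCm38.p6, read 5′ to 3′ on the strand of the gene. Capitals mark any match, on either strand, to CAGATG or CAGCTG, the E-box letters that bind factors such as Neurog3 and Neurod1 and their relatives, or to TTCAGCACC, part of the element bound by the repressor Rest. Kcnh6, on chromosome 11 at chr11:106007898-106008197 (plus strand), and Kcnmb1, at chr11:33962763-33963062 (plus strand), were lower in mutant libraries on all 3 diets. Kcnk16, at chr14:20269220-20269519 (minus strand), was also lower on all 3, and Kcnk5, at chr14:20181733-20182032 (minus strand), was higher on all 3.
Kcnh6: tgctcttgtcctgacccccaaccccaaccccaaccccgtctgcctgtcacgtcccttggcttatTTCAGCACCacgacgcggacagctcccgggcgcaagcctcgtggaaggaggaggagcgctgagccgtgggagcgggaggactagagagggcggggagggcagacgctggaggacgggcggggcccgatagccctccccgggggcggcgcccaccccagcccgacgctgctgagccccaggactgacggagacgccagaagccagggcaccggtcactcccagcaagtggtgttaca
Kcnmb1: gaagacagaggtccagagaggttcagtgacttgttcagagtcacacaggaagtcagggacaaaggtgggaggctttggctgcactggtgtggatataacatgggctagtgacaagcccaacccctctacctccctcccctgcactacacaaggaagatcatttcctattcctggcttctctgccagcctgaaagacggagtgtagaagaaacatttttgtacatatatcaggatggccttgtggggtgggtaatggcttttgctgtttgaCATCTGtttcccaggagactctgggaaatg
Kcnk16: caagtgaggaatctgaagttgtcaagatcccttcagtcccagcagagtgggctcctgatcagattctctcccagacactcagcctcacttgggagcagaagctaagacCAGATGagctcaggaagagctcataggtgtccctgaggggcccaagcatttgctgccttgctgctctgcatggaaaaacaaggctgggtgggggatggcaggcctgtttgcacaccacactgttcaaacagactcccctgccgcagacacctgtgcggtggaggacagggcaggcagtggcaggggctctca
Kcnk5: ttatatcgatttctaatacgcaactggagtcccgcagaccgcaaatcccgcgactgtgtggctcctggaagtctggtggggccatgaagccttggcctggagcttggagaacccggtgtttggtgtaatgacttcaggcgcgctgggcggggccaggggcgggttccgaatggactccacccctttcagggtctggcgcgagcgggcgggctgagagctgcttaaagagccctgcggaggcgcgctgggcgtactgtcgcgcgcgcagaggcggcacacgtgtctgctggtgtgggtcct

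Kcnh6 held the Rest letters 186 bases before its start, Kcnk16 held CAGATG 142 bases before its start, Kcnmb1 held it 20 bases after the start on the other strand, and Kcnk5 held none of the 3. RefSeq promoters were found for 95 of the 129 genes, 128 promoters in all. CAGATG was present in 18.8% of these promoters, against 17.2% of all 32851 promoters, CAGCTG in 26.6% against 16.3%, and TTCAGCACC in 0.781% (1 promoter) against 0.371%. Among the 26 promoters of 19 genes that were lower on all 3 diets, the shares were 23.1%, 26.9% and 3.85% in the same order. The other 102 promoters of channel genes had 17.6%, 26.5% and 0%, and the 3.85% was 1 promoter, that of Kcnh6. The printed windows do not stand for the set. Windows of Cacna2d1, Kcnc1, Kcnma1 and Scn9a, also lower on all 3 diets, held no match, and that of Kcnd3, higher on ND, held CAGCTG. No printed window held more than 1 match, so no matches overlapped, and a match describes the sequence only.

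On every diet, more channel genes were called lower than higher in cells titled mutant, and over 50% of those tested had no call. On ND, 41 of the 108 tested channel genes fell and 9 rose, where 13.3% of all 23630 tested genes fell and 13.7% rose (edgeR quasi-likelihood F-test, Benjamini-Hochberg adjusted p under 0.05 over all tested genes). On HFD 35 fell and 1 rose, against 5.64% and 0.14% of all tested genes, and on LPD 42 fell and 4 rose, against 10.4% and 5.22%. The median log2 fold change over the 108 was -0.65 on ND, -0.75 on HFD and -0.66 on LPD, while that over all tested genes was 0.01, -0.01 and 0.02.

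On all 3 diets 32 of the 108 (29.6%) fell, where 5.3% of all tested genes did. In 30 of these 32, each of the 11 mutant libraries lay below each of the 10 control libraries whatever the diet. The exceptions were Kcnu1 and Cacng4. Over all 108, 35 showed that separation downward and 1, Kcnk5, upward, where 5.97% and 1.3% of all tested genes did. On at least 1 diet 45 of the 108 fell and 10 rose, where 14.9% and 14.5% of all tested genes did, no channel gene did both, and 53 passed the test on none. In bulk RNA of sorted cells, fewer cells of a type and less RNA per cell cannot be told apart.

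**Figure D1:**
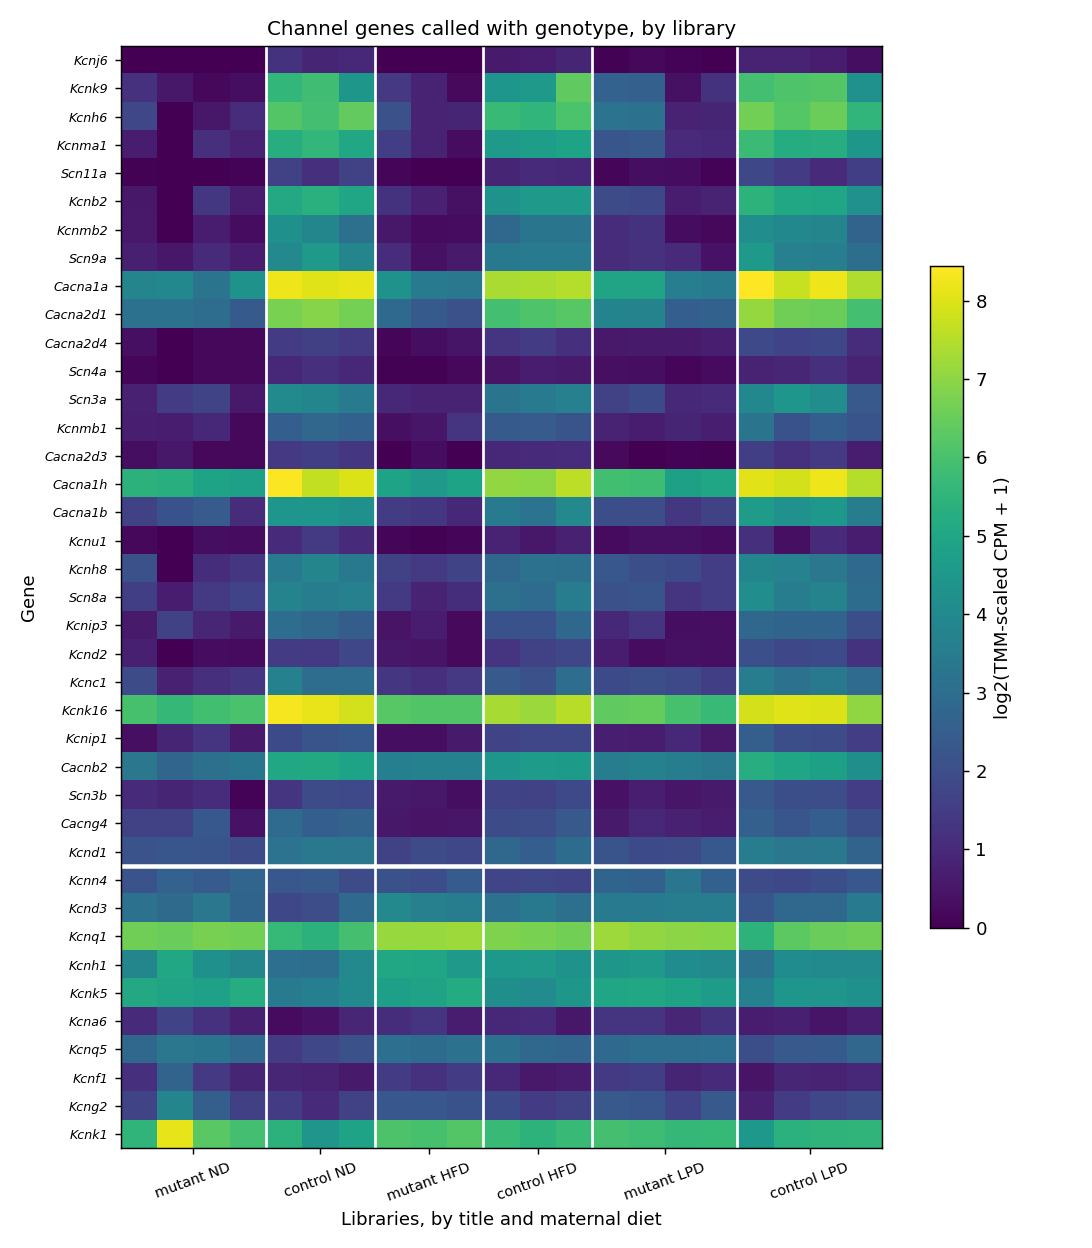
Colour gives log2(TMM-scaled CPM + 1) of each gene (rows) in each of 21 pancreatic libraries (columns, grouped by title and diet). Above the thick white line are 29 of the 32 genes lower in mutant libraries on all 3 diets, and under it the 10 that were higher on at least 1 diet; rows run by log2 fold change on ND within each block, and mutant LPD 1 and LPD 2 sit nearer to control than the other mutant LPD libraries for genes such as Kcnh6 and Kcnk9.

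Pore-forming calcium channel genes are described first. Of 7 tested alpha1 genes, 4 fell on each diet and none rose, and Cacna1a, Cacna1b and Cacna1h fell on all 3. Cacna1a, the pore of P/Q-type channels, had 13.3, 14.2, 8.48 and 18.7 CPM in mutant ND libraries, against 299, 257 and 278 CPM in control ND libraries. It had 18.9, 10.1 and 9.44 CPM in mutant HFD libraries, against 166, 169 and 181 CPM in control HFD libraries, and 29.2, 29.6, 11.2 and 10.0 CPM in mutant LPD libraries, against 346, 213, 294 and 170 CPM in control LPD libraries. Mutant and control libraries did not overlap, and the 2 higher mutant LPD values were those of LPD 1 and 2. The fold was 20.4 lower on ND (log2 fold change -4.35 ± 0.38, SE, adjusted p = 1.61e-07), 13.4 on HFD (adjusted p = 1.41e-05) and 12.8 on LPD (adjusted p = 1.05e-06).

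Cacna1h, a low-threshold T-type channel, had 41.6, 37.9, 28.4 and 26.2 CPM in mutant ND libraries, against 334, 203 and 253 CPM in control ND libraries. Its fold was 7.88 lower on ND, 5.65 on HFD and 5.75 on LPD (adjusted p of 1.03e-07, 1.31e-05 and 7.39e-07). Cacna1b, the pore of N-type channels, ranged from 0.914 to 4.32 CPM over the 11 mutant libraries and from 8.20 to 24.3 CPM over the 10 control libraries, and fell 7.25-fold on ND, 7.5-fold on HFD and 7.61-fold on LPD. The other T-type genes differed from Cacna1h: Cacna1i fell on ND (3.18-fold, adjusted p = 0.000441) and LPD (2.03-fold, adjusted p = 0.0171) and had an adjusted p of 0.59 on HFD. Cacna1g had 21.1 ± 9.62 CPM in mutant ND and 8.401 ± 1.75 CPM in control ND libraries (SD, n = 4 and 3) with overlap, and its adjusted p was 0.179, 0.875 and 0.562 on ND, HFD and LPD. Cacna1e, the pore of R-type channels, passed on HFD alone, at 3.08-fold lower (adjusted p = 0.0377, lost without any of 5 of the 6 HFD libraries).

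All 4 alpha2delta genes, whose products carry the pore to the membrane, fell on ND and LPD, and 3 fell on HFD. Cacna2d1 had 7.81, 8.09, 7.13 and 4.24 CPM in mutant ND libraries, against 105, 119 and 101 CPM in control ND libraries. It fell 16.1-fold on ND, 14.5-fold on HFD and 10.8-fold on LPD (adjusted p of 1.46e-07, 6.8e-06 and 8.06e-07), with no overlap on any diet. Cacna2d3 fell 8.04, 14.1 and 19.8-fold on ND, HFD and LPD, and Cacna2d4 fell 11.7, 6.06 and 3.92-fold. Both were at far lower levels, at most 0.469 and 0.636 CPM in mutant libraries and 0.550 to 1.99 and 1.10 to 2.62 CPM in control libraries. Cacna2d2 moved least of the 4, by 1.83-fold on ND and 1.68-fold on LPD, with an adjusted p of 0.064 on HFD.

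Of the cytosolic beta subunits, Cacnb2 fell 4.03-fold on ND, 1.91-fold on HFD and 2.61-fold on LPD, from libraries at 5.75 to 12.2 CPM in mutant and 17.5 to 37.2 CPM in control. Cacnb3 fell 1.55-fold on ND, where its groups overlapped, and 1.87-fold on LPD, and Cacnb1 fell on HFD and LPD. Cacnb4 passed on no diet. Among the gamma genes, of which 4 of 8 were tested, Cacng4, in neurons a partner of AMPA-type glutamate receptors, fell on all 3 diets by 2.66, 7.97 and 5.83-fold on ND, HFD and LPD. The ND call of Cacng4 was lost without control ND 2. Its neighbour Cacng5, 80048 bases away on chromosome 11, fell on ND.

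**Figure D2:**
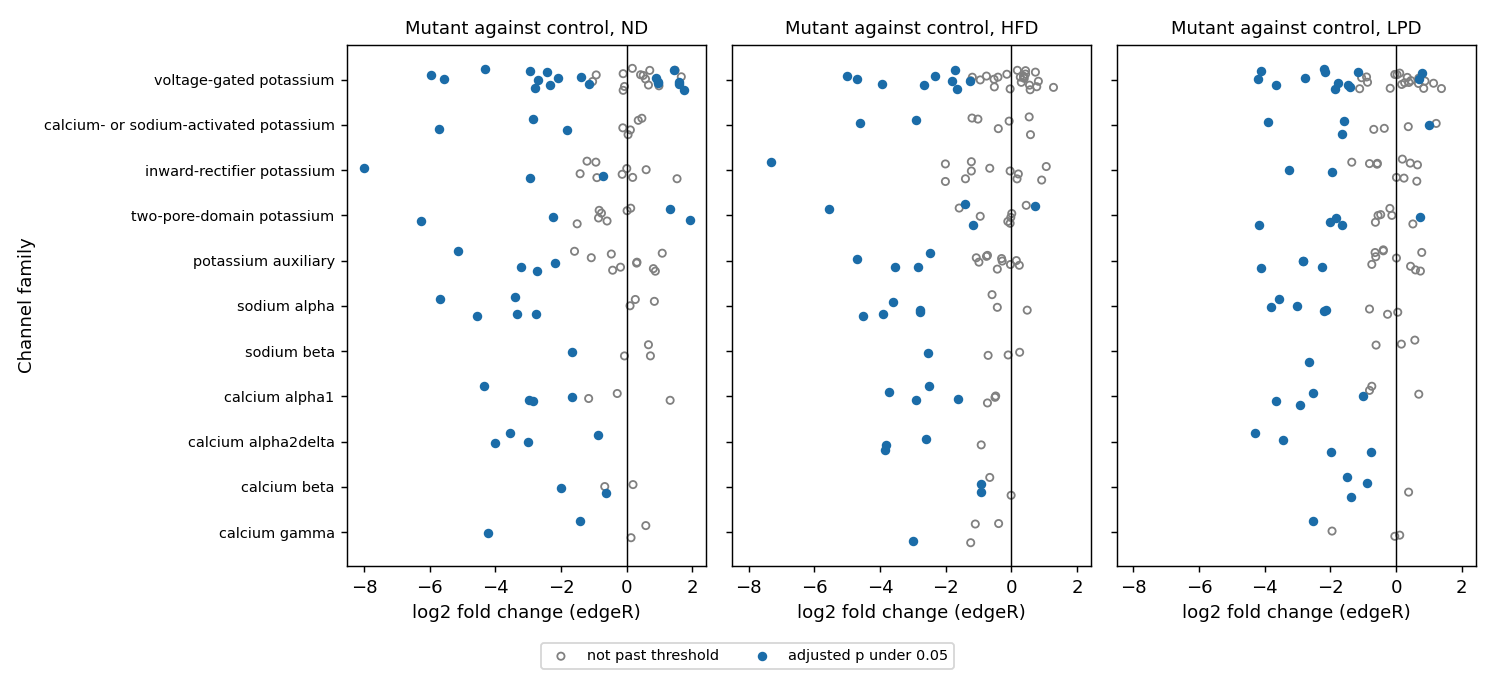
Each point is the log2 fold change, mutant against control, of 1 tested channel gene on ND, HFD or LPD, placed by family; filled points passed an adjusted p under 0.05 in edgeR and open points did not. All called points of the calcium, sodium, inward-rectifier and potassium auxiliary families lie left of 0, and called points right of 0 are voltage-gated, two-pore-domain or calcium-activated potassium channel genes.

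Of the sodium channel genes, 5 alpha subunits and 1 beta subunit fell on every diet. Of 8 tested alpha subunit genes, Scn3a, Scn4a, Scn8a, Scn9a and Scn11a fell on all 3 and Scn2a and Scn7a passed on none. Scn9a had 0.674, 0.469, 1.02 and 0.561 CPM in mutant ND libraries, against 14.5, 22.4 and 13.4 CPM in control ND libraries. In HFD cells it had 1.10, 0.313 and 0.518 CPM in mutant libraries, against 9.62, 10.0 and 10.5 CPM in control libraries, and in LPD cells 1.10, 1.29, 0.992 and 0.318 CPM in mutant libraries, against 22.1, 11.7, 11.3 and 7.24 CPM in control libraries. The highest mutant library, at 1.29 CPM, lay below the lowest control library, at 7.24 CPM. Scn9a fell 23.8-fold on ND, and its log2 fold change was -3.91 ± 0.48 on HFD and -3.81 ± 0.41 on LPD (SE, adjusted p of 3.22e-07, 2.1e-05 and 1.77e-06).

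Scn3a, a channel known from embryonic brain, fell 10.2-fold on ND, 12.3-fold on HFD and 8.12-fold on LPD, with mutant libraries at 0.499 to 2.697 CPM and control libraries at 4.17 to 20.6 CPM. Scn8a, a widely used neuronal channel, ranged from 0.586 to 3.60 CPM in mutant and from 6.79 to 16.4 CPM in control libraries. Scn4a, the channel of skeletal muscle, and Scn11a, a channel of sensory neurons, were low throughout, at most 1.20 and 2.58 CPM in any control library. Scn11a gave 3 counts in all over the mutant ND libraries and 167 over the control ND libraries. Of the beta subunits, which adjust gating and bind the pore, Scn3b fell 3.18-fold on ND, 5.81-fold on HFD and 6.25-fold on LPD, and Scn2b and Scn4b did not pass. The ND call of Scn3b was lost without control ND 3 or control ND 4, and its HFD call without mutant HFD 3.

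Genes of 1 sodium channel cluster on chromosome 2 did not move alike. Scn3a (65457118 to 65567627) and Scn9a (66480080 to 66634962) fell, while Scn2a, 53144 bases from Scn3a, and Scn7a, 38463 bases from Scn9a, passed on no diet, and Scn1a between them was too low to test. Scn2a had 1.11 ± 0.249 CPM in mutant ND and 0.923 ± 0.140 CPM in control ND libraries (SD, n = 4 and 3). Positions are those of the GENCODE annotation on GRCm38.

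Voltage-gated potassium channel genes went both ways. Of 32 tested, 11 fell and 7 rose on ND, 9 fell and none rose on HFD, and 11 fell and 2 rose on LPD. Kcnh6, an ether-a-go-go related channel, had 2.45, 0.0, 0.448 and 1.12 CPM in mutant ND libraries, against 71.1, 59.8 and 84.4 CPM in control ND libraries. In HFD cells it had 3.29, 0.731 and 0.823 CPM in mutant libraries, against 51.2, 46.4 and 64.5 CPM in control libraries, and in LPD cells 8.31, 8.02, 0.786 and 0.848 CPM in mutant libraries, against 99.2, 73.2, 92.8 and 46.5 CPM in control libraries. The 3 mutant libraries with most Ins2 were the highest of the HFD and LPD mutants for Kcnh6, and their part in the size of the fold was not tested beyond leaving them out. Kcnh6 fell 61.8-fold on ND, 32.2-fold on HFD and 17.3-fold on LPD (adjusted p of 7.17e-05, 0.00146 and 0.000759), and stayed called under each alternative that was run.

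Its relative Kcnh2, a delayed rectifier of heart and endocrine cells, fell much less, 2.2-fold on ND and 2.25-fold on LPD, and had an adjusted p of 0.173 on HFD. Kcnh2 kept 39.8 to 66.9 CPM in mutant libraries, against 73.1 to 162 CPM in control libraries. Kcnh8 of the same family fell 6.89, 3.52 and 3.61-fold on ND, HFD and LPD, Kcnh1 rose on ND, and Kcnh3, Kcnh4, Kcnh5 and Kcnh7 passed on none.

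Kcnb2, which encodes a delayed rectifier, had 0.461, 0.0, 1.59 and 0.561 CPM in mutant ND libraries, against 32.9, 40.1 and 30.3 CPM in control ND libraries, and fell 46.9-fold on ND, 26.1-fold on HFD and 18.3-fold on LPD (adjusted p of 1.63e-06, 7.98e-05 and 1.45e-05). Its mutant and control libraries did not overlap on any diet.

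Kcnc1, a fast channel that lets cells fire repeatedly, and Kcnd1 and Kcnd2, transient A-type channels, also fell on all 3 diets. Kcnd2 fell 6.47, 6.3 and 6.88-fold on ND, HFD and LPD, Kcnc1 fell 5.41, 3.27 and 3.39-fold, and Kcnc2 fell on ND and LPD. Kcnd1 fell less, 2.62-fold on ND, 2.42-fold on HFD and 2.65-fold on LPD.

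Among calcium-activated potassium channels, Kcnma1, the large-conductance (BK) channel that joins calcium and voltage signals, fell on all 3 diets. It had 0.568, 0.0, 1.22 and 0.780 CPM in mutant ND libraries, against 37.3, 46.7 and 31.8 CPM in control ND libraries. It had 1.99, 0.800 and 0.213 CPM in mutant HFD libraries, against 22.8, 25.1 and 28.5 CPM in control HFD libraries, and 3.80, 4.06, 1.03 and 0.919 CPM in mutant LPD libraries, against 53.4, 36.8, 37.3 and 20.9 CPM in control LPD libraries. Again mutant HFD 1, LPD 1 and LPD 2 were highest within their mutant groups, and none reached a control library. Kcnma1 fell 52.6-fold on ND and 24.5-fold on HFD, and its log2 fold change on LPD was -3.91 ± 0.55 (SE, adjusted p of 3.2e-06, 0.000155 and 5.04e-05).

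Kcnu1, a relative of Kcnma1 known from sperm, fell 7.14-fold on ND, 7.54-fold on HFD and 3.11-fold on LPD, and Kcnt1, a sodium-activated channel, fell on ND and LPD.

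The BK beta subunits Kcnmb1 and Kcnmb2, which raise calcium sensitivity or inactivate the BK channel, fell too. Kcnmb2 fell 35.3-fold on ND, 25.9-fold on HFD and 17.3-fold on LPD, Kcnmb1 fell 9.41, 5.6 and 7.05-fold, and Kcnmb3 and Kcnmb4 passed on no diet. Kcnmb1 (chromosome 11, 33963013 to 33973641) lies inside the span of Kcnip1 (33629339 to 33993152), with no shared exon bases, and both fell on all 3 diets. Kcnip1 and Kcnip3 bind A-type channels, and Kcnip3 is also known as a transcriptional repressor. Kcnip1 fell 4.54-fold on ND, 7.17-fold on HFD and 4.84-fold on LPD, and Kcnip3 fell 6.58, 11.7 and 7.08-fold. The other 10 tested potassium auxiliary genes, of the Kcnab, Kcne, Kcnip and Kcnmb groups, passed on no diet.

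Of 12 tested inward rectifier genes, 3 fell on ND (25%), 1 on HFD (8.33%) and 2 on LPD (16.7%), and none rose. Of all tested genes 13.3%, 5.64% and 10.4% fell on these diets, and whether this small family differs from them was not tested. Kcnj6, a channel opened by G proteins, had no count in any of the 4 mutant ND and 3 mutant HFD libraries, against 95 counts over the control ND and 65 over the control HFD libraries. With 3 counts allowed over the mutant group, its level was at least 32.4-fold lower on ND and at least 22.6-fold lower on HFD (adjusted p of 6.52e-05 and 0.000569). In LPD cells it had 0.0297, 0.144, 0.0684 and 0.0 CPM in mutant libraries, against 0.789, 0.801, 0.614 and 0.229 CPM in control libraries, 9.57-fold lower (adjusted p = 0.0033). Kcnj2, a strong inward rectifier, fell on ND, and Kcnj5, a partner of Kcnj6, fell on ND and LPD, by 7.76 and 3.9-fold, and had an adjusted p of 0.0785 on HFD.

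Two-pore-domain channels carry the background potassium current. Genes of this family went both ways, as did voltage-gated potassium genes and, on LPD, calcium- or sodium-activated ones. Kcnk16, a channel of the endocrine pancreas, had 62.5, 48.7, 57.9 and 63.1 CPM in mutant ND libraries, against 322, 282 and 231 CPM in control ND libraries. It had 75.7, 69.7 and 69.4 CPM in mutant HFD libraries, against 161, 144 and 183 CPM in control HFD libraries, and 82.3, 85.2, 61.9 and 50.2 CPM in mutant LPD libraries, against 235, 262, 254 and 130 CPM in control LPD libraries. All mutant libraries lay below all control libraries, and all kept Kcnk16 at 48.7 CPM or more. The folds were 4.79 lower on ND, 2.27 on HFD and 3.15 on LPD (adjusted p of 1.56e-07, 0.00127 and 4.83e-06).

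Kcnk9, an acid-sensitive background channel, had 1.28, 0.469, 0.122 and 0.249 CPM in mutant ND libraries, against 47.1, 57.2 and 20.9 CPM in control ND libraries. It fell 76.3-fold on ND and 46.8-fold on HFD, and its log2 fold change on LPD was -4.17 ± 0.81 (SE, adjusted p of 0.000179, 0.00194 and 0.00164). Control values of Kcnk9 were uneven, from 18.4 to 81.2 CPM, and the LPD mutants split into 5.32 and 5.03 CPM in LPD 1 and 2 and 0.308 and 1.34 CPM in LPD 3 and 4. The related Kcnk3 fell on HFD (2.63-fold, adjusted p = 0.0392) and LPD (3.58-fold, adjusted p = 0.000759). Its adjusted p was 0.0871 on ND, and its HFD call was lost without control HFD 1 or 3 or without any of the 3 mutant HFD libraries. Kcnk12, a silent or weak member, fell on LPD.

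Kcnk5, a background channel of kidney and other epithelia, was higher in mutant libraries on all 3 diets, which 0.123% of all tested genes were. It had 33.0, 29.1, 27.3 and 36.0 CPM in mutant ND libraries, against 10.2, 11.6 and 15.46 CPM in control ND libraries. It had 26.1, 28 and 35.2 CPM in mutant HFD libraries, against 17.3, 15.8 and 21.2 CPM in control HFD libraries, and 30.5, 31.8, 28.8 and 24.3 CPM in mutant LPD libraries, against 12.04, 20.4, 19.95 and 17.7 CPM in control LPD libraries. Mutant libraries were above control libraries throughout. Kcnk5 rose 2.52-fold on ND, 1.64-fold on HFD and 1.64-fold on LPD (adjusted p of 3.36e-05, 0.0324 and 0.00605), and its HFD call was lost without control HFD 1 or 2 or mutant HFD 2 or 3. Kcnk5 and Kcnk16 lie 79567 bases apart on chromosome 14 (20140057 to 20181809 and 20261376 to 20269199), so these neighbours moved in opposite directions on each diet.

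**Figure D3:**
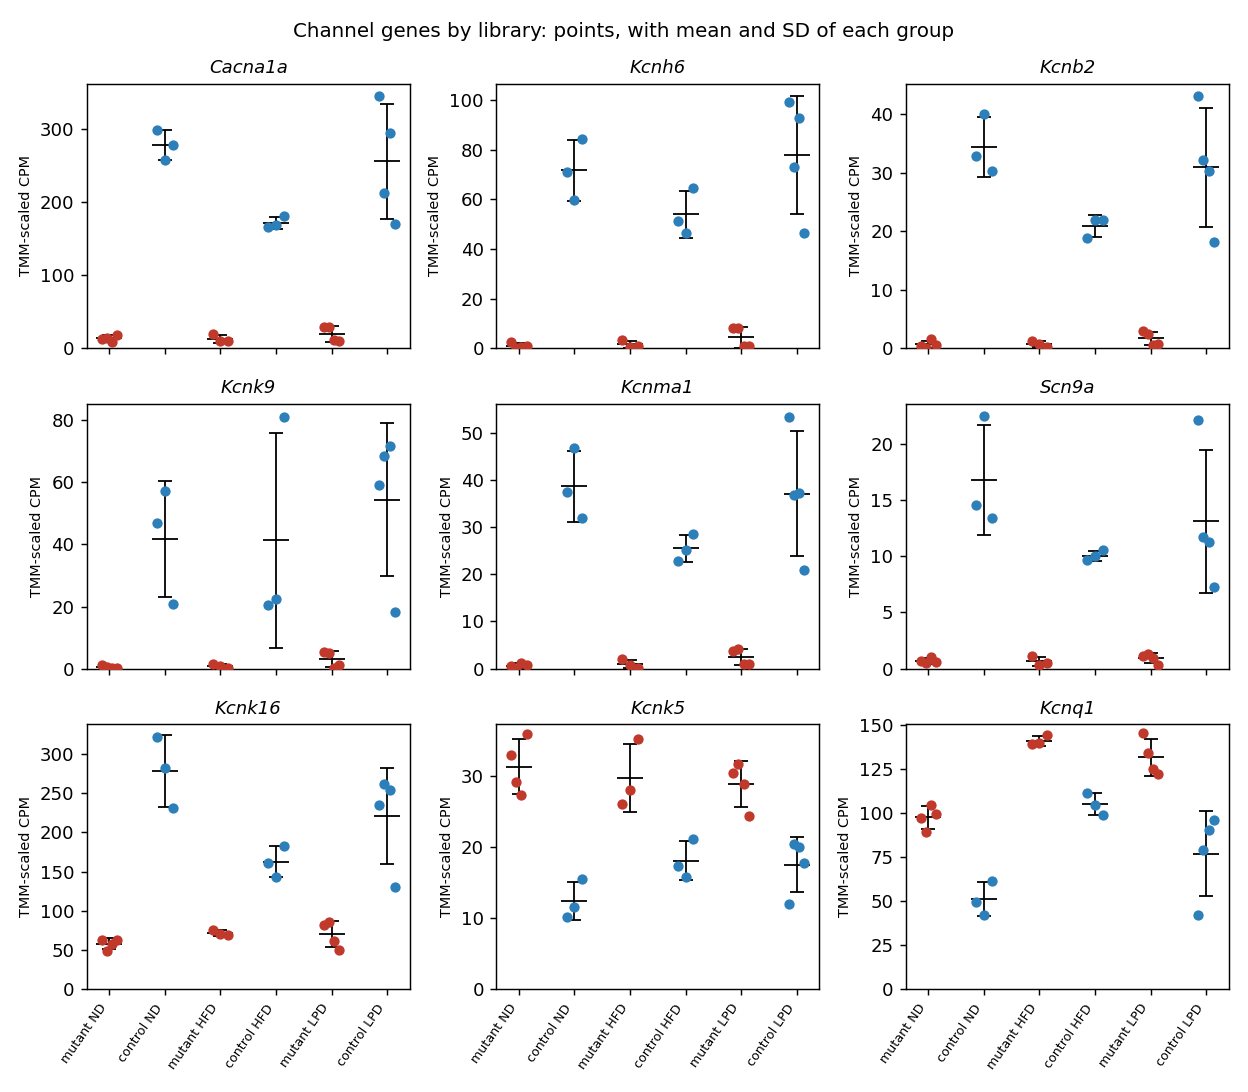
TMM-scaled CPM (linear axes from 0) of 9 channel genes in each pancreatic library, with mutant libraries in red and control libraries in blue for each diet; bars give the mean and SD of each group (n = 3 or 4). The first 7 genes lie lower in mutant libraries without overlap on any diet, Kcnk5 lies higher without overlap, and Kcnq1 lies higher in mutant within each diet, at 89.3 to 145 CPM.

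The other genes that rose did so on 1 or 2 diets. Kcnq1, which pairs with Kcne subunits in epithelia and heart, had 97.2, 89.3, 105 and 99.9 CPM in mutant ND libraries, against 49.5, 42.3 and 61.3 CPM in control ND libraries. It had 139, 140 and 145 CPM in mutant HFD libraries, against 112, 105 and 99.2 CPM in control HFD libraries, and 145, 134, 125 and 122 CPM in mutant LPD libraries, against 42.4, 79.2, 90.2 and 96.1 CPM in control LPD libraries. Within each diet the titles did not overlap, although mutant ND libraries overlapped the control HFD ones. Kcnq1 rose 1.92-fold on ND (adjusted p = 0.000938) and 1.71-fold on LPD (adjusted p = 0.00337), and its adjusted p on HFD was 0.34. Exons of Kcnq1 overlap those of the antisense gene Kcnq1ot1 over 2.96% of their length.

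Kcnq5, a channel of the same family as Kcnq1, rose 2.99-fold on ND (adjusted p = 0.000101) and 1.62-fold on LPD (adjusted p = 0.0366). Its LPD call was lost without any 1 of the mutant LPD libraries. Kcnk1, a weak background channel, rose 3.78-fold on ND, where mutant ND 2 had 280 CPM and the other 3 mutant libraries 45.0 to 76.2 CPM, against 20.3 to 41.8 CPM in control ND libraries. Without mutant ND 2 the log2 fold change of Kcnk1 was 0.98 in place of 1.92 and still passed. Kcnn4, a calcium-activated channel of epithelial and blood cells, rose 2.01-fold on LPD (adjusted p = 0.00549). Kcna6, Kcnd3, Kcnf1, Kcng2 and Kcnh1 rose on ND only by their calls, by 1.86 to 3.31-fold, and overlapped between titles, and whether their ND change differed from that on the other diets is covered by the interaction tests. For Kcnf1, Kcng2 and Kcnh1 the highest library was mutant ND 2, with 5.39, 13.2 and 32.6 CPM, and those calls were lost without it and without control ND 2 or 3. The call of Kcna6 was lost under most alternatives. Kcna6 shares 39.6% of its exon length with an antisense gene, and the sources used here do not say whether counting used strand.

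Some markers of other cells also differed between titles. The list of 8 acinar markers summed to 13343 to 24767 CPM in mutant ND and 6655 to 8575 CPM in control ND libraries, 33491 to 35498 and 22990 to 28529 CPM on HFD, and 25073 to 33297 and 5534 to 16927 CPM on LPD, mutant before control. All 8 acinar genes rose on ND and on LPD and none passed on HFD, and 3 of 7 trunk and duct genes rose on ND. None of the 9 mesenchyme, 9 endothelium or 9 blood markers passed between titles on any diet, and 1 of 9 neural crest and glia markers rose on ND and on LPD. The mesenchyme list was uneven, at 802 to 9765 CPM in mutant ND and 562.5 to 2020 CPM in control ND libraries. Its Col1a1 had 4662 and 1810 CPM in mutant ND 2 and 3, 314 and 457 CPM in mutant ND 1 and 4, and 215.5 to 902 CPM in control ND. On HFD the list summed to 110 to 678 CPM in mutant and 175 to 1146 CPM in control libraries. On LPD it summed to 209 to 930 and 171 to 715.5 CPM. The part of all these other cells in the changes of the channel genes was not tested.

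Neuronal markers, many of which endocrine cells also express, were lower in mutant libraries. The 11 summed to 3.84 to 16.2 CPM in mutant and 39.1 to 88.7 CPM in control libraries, and 7, 4 and 6 of 9 tested fell on ND, HFD and LPD. Slc17a6, the glutamate transporter of hypothalamic neurons, was at 0 in 11 of 11 mutant and 6 of 10 control libraries, with at most 0.0762 CPM in any, against 124 and 199 CPM in the mutant and control hypothalamic libraries.

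Levels of different channel genes can be set side by side in the deposited FPKM, which are scaled by gene length and library total, Gm26917 counts included. Kcnk16 averaged 20.9 ± 9.78 FPKM in mutant ND and 129 ± 15 FPKM in control ND libraries (SD, n = 4 and 3), the highest level of any channel gene in control cells. In mutant ND cells the highest level was that of Kcnk1, at 30.96 ± 11.4 FPKM, against 14.6 ± 3.004 FPKM in control ND cells, and Kcnq1 followed Kcnk16 at 19.97 ± 8.27 and 13.9 ± 3.73 FPKM in the same order. Kcnk1, Kcnk16 and Kcnq1 did not differ beyond their SD in mutant ND cells. The mean of Kcnk1 there includes mutant ND 2, at 280 CPM against 45.0 to 76.2 CPM in the other mutant ND libraries. In control ND cells Kcnk16 was followed by Kcnh2 at 29.8 ± 1.76, Cacna1h at 29.3 ± 3.19, Cacna1a at 25.01 ± 2.73 and Kcnh6 at 22.6 ± 5.54 FPKM, and each overlapped the next in this order within 1 SD of both.

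Summed per class, the 76 potassium pore genes held 112 ± 20.01 FPKM in mutant ND and 271 ± 18.1 FPKM in control ND cells, 138 ± 3.72 and 208 ± 7.23 FPKM on HFD, and 135 ± 13.3 and 257 ± 53.1 FPKM on LPD, mutant before control. The 8 calcium alpha1 genes held 5.75 ± 2.17 FPKM in mutant ND and 58.3 ± 3.80 FPKM in control ND cells. The 10 sodium alpha genes held 0.651 ± 0.326 FPKM in mutant ND and 4.30 ± 0.703 FPKM in control ND cells. Sodium channel RNA was thus a small part of the channel RNA in both titles, and the potassium sum kept more of its control level than the calcium and sodium sums. That order of shares is a description and was not tested.

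Genes that work with these channels but lie outside the rule were also more often called lower than higher, and under 50% of them were called lower on each diet. Of 37 tested of 39, 17 fell and 3 rose on ND, 12 fell and none rose on HFD, and 18 fell and 2 rose on LPD, read against the same shares of all genes. Abcc8 and Kcnj11, the subunits of the ATP-sensitive potassium channel, averaged 19.4 ± 4.30 and 17.8 ± 3.34 CPM in mutant ND libraries, against 583 ± 98.5 and 137 ± 29.6 CPM in control ND libraries (SD, n = 4 and 3). Abcc8 fell 30.1-fold on ND and 13.1-fold on LPD, and its log2 fold change on HFD was -3.8 ± 0.56 (SE). Unc80, which holds the sodium leak channel together, fell 28.5-fold on ND and 16.4-fold on HFD and had a log2 fold change of -3.52 ± 0.35 (SE) on LPD, and Hcn2, Hcn3 and Hcn4 of the pacemaker channels and Dpp6 and Dpp10, partners of A-type channels, fell on all 3.

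L-type calcium channel genes differed: Cacna1c fell on all 3 diets, by 7.63, 5.65 and 5.63-fold on ND, HFD and LPD, whereas Cacna1d fell on ND by 2.25-fold and had an adjusted p of 0.136 on HFD and 0.0626 on LPD. The genes that rose were Trpm4, a cation channel opened by calcium, and Rest, the repressor of neuronal genes, on ND and LPD, and Cachd1 on ND. Rest averaged 104 ± 10.9 CPM in mutant ND and 57.2 ± 14 CPM in control ND libraries, 105 ± 7.67 and 71.98 ± 2.03 CPM on HFD, and 103 ± 3.29 and 67.2 ± 17.2 CPM on LPD. It rose 1.81-fold on ND (adjusted p = 0.000901) and 1.53-fold on LPD (adjusted p = 0.00985), and its adjusted p on HFD was 0.0985.

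By edgeR, the diet comparisons called between 0 and 5 channel genes each. In control cells, HFD against ND raised 3 of the 108, Kcnq1, Kcnq5 and Scn4b, and lowered none, where 3.1% of all tested genes rose and 0.808% fell. Scn4b, a sodium channel beta subunit, had 4.22, 5.54 and 7.39 CPM in control HFD libraries, against 0.8292, 1.07 and 0.968 CPM in control ND libraries, 5.95-fold higher (adjusted p = 0.00713). Kcnq1 rose 2.06-fold and Kcnq5 2.6-fold in the same comparison, with no overlap for any of the 3 genes. All 3 calls were lost without control ND 2, the control library with most duplicates. The count of 3 became 9 with the replicate block, 12 with only the compared libraries, 11 with DESeq2 and 1 once library number (25 or above against below) was in the model, where 5 of the ND libraries and none of the HFD libraries number 25 or above. All 8 acinar markers also rose in control HFD against control ND cells, and their part in these 3 changes was not tested.

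In mutant cells, HFD against ND raised 2 channel genes, among them Scn4b, and lowered 3, among them Cacng4 and Kcnq3, where 0.961% of all tested genes rose and 1.9% fell. Scn4b had 5.01, 5.50 and 5.57 CPM in mutant HFD libraries, against 0.461, 2.46, 1.75 and 1.87 CPM in mutant ND libraries, 3.38-fold higher (adjusted p = 0.039). The count of 5 became 0 without any 1 of the 3 mutant HFD libraries, 2 without mutant ND 3, and 10 without mutant ND 1 or 4. It also became 0 with library number in the model, with the mixed library as control ND, with only the compared libraries and with limma, and 14 with DESeq2.

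LPD against ND changed no channel gene by edgeR in either title. At an unadjusted p under 0.05 there were 10 in control and 29 in mutant cells. The share of all genes at that cut was not counted, so these numbers do not set channel genes apart. DESeq2 called 0 and 11 channel genes. Over all 23630 tested genes it called 5 higher and 2 lower in control cells, and 941 higher and 1361 lower in mutant cells. By edgeR, none of all tested genes passed for LPD in control cells, and 0.643% fell and 0.41% rose in mutant cells. Leaving out mutant ND 1 gave 11 calls in mutant cells.

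By edgeR, the genotype change did not pass a test of difference between diets for any channel gene. For HFD minus ND, 0 of 108 passed by edgeR, 12 had an unadjusted p under 0.05, and DESeq2 called 1; for LPD minus ND, 0 passed, 11 had an unadjusted p under 0.05, and DESeq2 called 0. By edgeR no gene of the whole table passed either test, while DESeq2 called 6 higher and 5 lower for HFD minus ND and none for LPD minus ND. Both differences share the ND libraries, and the share of all genes at an unadjusted p under 0.05 was not counted.

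The hypothalamic libraries give the same genes in another tissue. They hold neuronal markers, which summed to 1711 CPM in mutant and 1833 CPM in control, and also endothelial markers at 561 and 200 CPM and blood markers at 473 and 495 CPM. There was 1 library per title, so no test was made, and intervals cover counting error only. Duplicate reads made up 82.3% in the mutant and 77.5% in the control hypothalamic library. The intervals make no allowance for duplicates and may be too narrow. In CPM of total counts, 71 of the 129 genes (55%) lay in both hypothalamic libraries above all 21 pancreatic libraries, where 20.4% of all genes did, and 8 lay below all 21, where 6.28% of all genes did. All 129 are protein-coding, against 19107 of the 40173 genes behind those shares. The shares among protein-coding genes alone were not counted. The 8 below were Kcnk16, Kcnk1, Kcnk5, Kcnq1, Kcnh1, Kcnn4, Kcng2 and Kcne3, and 6 of them are among the 10 genes that rose in mutant pancreas. Of the 32 genes that fell on all 3 diets, 16 lay above all pancreatic libraries and 1, Kcnk16, below.

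Kcnk16 had no count in either hypothalamic library, where 0 counts allow up to 0.123 CPM in mutant and 0.132 CPM in control (95% Poisson limits), against a median of 69.97 CPM in mutant and 268 CPM in control pancreas. By FPKM the highest hypothalamic levels were those of Cacnb3, at 48.1 in mutant and 50.2 in control, and Cacng4, at 33.5 and 30.8, followed in the control library by Cacna2d1, at 18.5 in mutant and 26.8 in control, and Scn3a, at 23.7 and 24.9.

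The hypothalamic mutant and control libraries held like levels of most channel genes, and the pancreatic losses were not seen there at such size. Cacna1a had 162 CPM (95% interval 158 to 167) in mutant and 173 CPM (168 to 178) in control, and Scn3a 301 and 317 CPM. Kcnma1 had 57.6 and 64.2 CPM, and Kcnk9 6.31 and 9.78 CPM, mutant before control. Of 105 genes with at least 20 counts in the larger library, 7 (6.67%) were 2-fold or more higher in mutant and 6 (5.71%) were 2-fold or more lower. Of all such genes 7.49% and 9.87% were. Kcnh6 was 1 of the 7, at 7.28 CPM (6.35 to 8.32) in mutant and 3.60 CPM (2.94 to 4.38) in control. Scn11a was 1 of the 6, at 0.768 and 2.64 CPM. With 1 library per title and both shares under those of all genes, neither value is a result about channel genes. Neurog3 itself was low there, at 0.568 CPM in the mutant and 2.75 CPM in the control library.

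**Figure D4:**
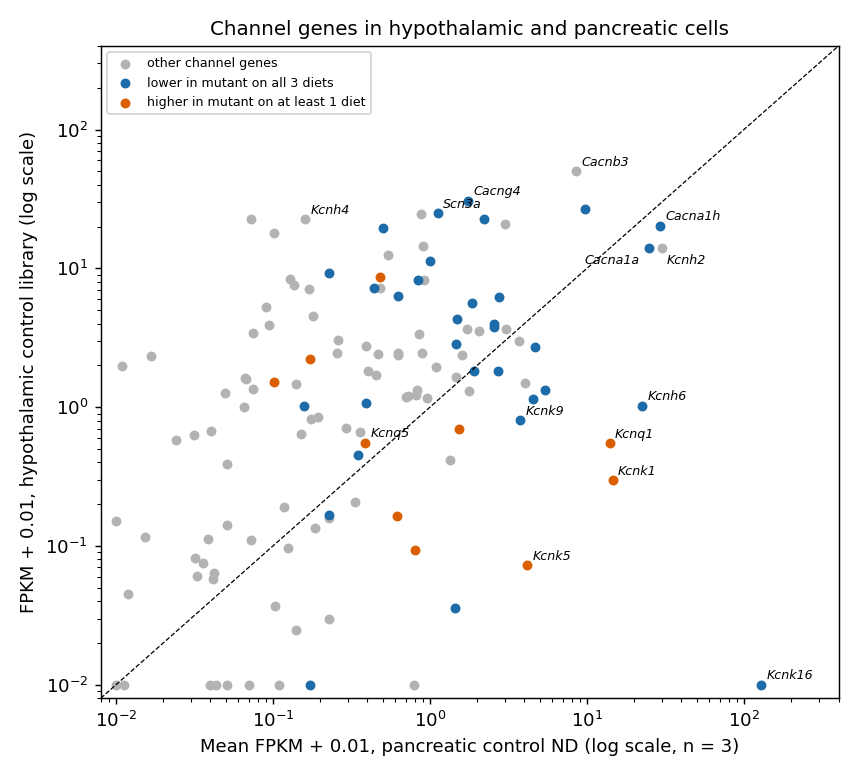
Each point is 1 of the 129 channel genes, with the mean FPKM + 0.01 of the 3 pancreatic control ND libraries on the horizontal and the FPKM + 0.01 of the hypothalamic control library on the vertical axis (both log scales; the dashed line marks equal levels). Kcnk16 sits at 129 FPKM in pancreas and 0 in hypothalamus, Kcnq1, Kcnk1 and Kcnk5 also lie under the line, and Cacnb3, Cacng4 and Scn3a lie above it.

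The 21 genes that were not tested reached at most 0.704 CPM, that of Kcnj16, in any pancreatic library. They include Cacna1s and the sodium channel genes Scn1a and Scn10a, and 12 of the 21 lay above all pancreatic libraries in both hypothalamic ones. The 53 tested genes that passed on no diet include Kcnh7, at 16.3 ± 4.58 CPM in mutant ND and 11.6 ± 3.81 CPM in control ND libraries (SD, n = 4 and 3), and Kcnn3, a small-conductance channel, at 1.40 ± 0.517 and 1.55 ± 0.519 CPM.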

How the data were processed

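RNA of eGFP-positive cells was sequenced from 24 libraries, with strand-specific preparation after depletion of ribosomal RNA, per the labels' protocols. The authors worked on build GRCm38.p6, with featureCounts 2.0.2, STAR 2.7.8a and cutadapt 2.10 named in the submitters' processing notes. The deposited counts are the authors' whole-number counts per gene, not normalized. The deposited FPKM values were made by the authors from the same libraries, scaled by gene length and library total. The deposited read statistics give duplicate and aligned reads per library in percent, as exported by the sequencing core.

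Counts of 21 pancreatic libraries in 6 groups were fitted together (R 4.3.3, limma 3.58.1, edgeR 4.0.16): filterByExpr kept 23630 of 40173 genes, TMM scaled the libraries, and contrasts were tested with robust quasi-likelihood F-tests, with Benjamini-Hochberg adjustment over all tested genes and a threshold of 0.05. There were 9 contrasts: the genotype change by title on each of the diets, HFD or LPD relative to ND among libraries of 1 title, and how the genotype change on HFD or LPD differed from that on ND. Pancreatic CPM are scaled by TMM unless given as CPM of total. Folds are edgeR's, ± is SD beside levels and SE beside log2 fold changes. The test was tested on simulated counts first. These had the same dispersion for every gene and left the lowest-counted genes unchanged. They cannot say how the test performs on low counts or on libraries as uneven as these. With no count over a group, 3 counts were allowed. The hypothalamic libraries, 1 per title, have 95% Poisson intervals. Counting intervals cover counting error only and make no allowance for duplicate reads. DESeq2 1.42.0, limma on log2(FPKM + 1), other scalings, filters and sample sets and a replicate block were tried as alternatives. Control ND 1, of mixed genotype by its description, was in no group.

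By rule, the text draws on the 12 lowest and 8 highest called log2 fold changes per genotype comparison with a mean of at least 1 CPM in a group, up to 8 calls per diet comparison, the 10 highest FPKM in pancreas and in hypothalamus, a list of 28 channel genes of beta cells, and up to 6 associated genes per genotype comparison. Other genes were named after their values were seen. The members and gene lists were chosen with earlier results of these data known. Deviations of same-numbered mutant and control libraries had correlations of 0.107, 0.222 and 0.411 on HFD. On ND they were 0.295, -0.019 and 0.0215, and on LPD -0.21, 0.292, -0.326 and 0.348. Libraries of different numbers were not compared, so these values cannot say whether the numbers pair the libraries. The labels do not state it. The sources used here do not say how counting treated strand. Python 3.11.15 with matplotlib 3.10.9 made the figures. Some channel genes are not reported by name here, and counts include them.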

Additional observations from a re-analysis of the deposited data

Results flagged for a closer look

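In groups of 4 libraries, 8 of 123 gene and group combinations held a library far from the other 3 (by the gap to its nearest neighbour over the whole range, Dixon's 95% limit), and chance gives about 1 in 20. Kcnk1 stood at 280.1 CPM in mutant ND 2, against 44.99 to 76.15 CPM in the other mutant ND libraries, and at 21.64 CPM in control LPD 1, against 40.93 to 44.37 CPM in the other control LPD libraries. Kcnh1 was also low in control LPD 1, at 8.098 CPM, where the others had 15.04 to 16.1 CPM. Cacna1e had 4.258 CPM in mutant ND 1, above 1.525 to 1.752 CPM in the rest of its group. Kcnq3 had 4.115 CPM in mutant ND 3, and the other mutant ND libraries 1.419 to 1.877 CPM. Cacna2d2 had 2.583 CPM in mutant LPD 1, among the mutant libraries with most Ins2, against 1.812 to 1.942 CPM in the other 3. Mutant LPD 3 stood apart for Kcna6, at 0.8548 CPM where the others had 1.379 to 1.438 CPM, and for Kcnn4, at 8.856 CPM where the others had 5.161 to 5.553 CPM.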

How the results depend on the processing

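The counts of channel genes lower in mutant than in control libraries held within 1.5 times under every alternative on ND (41, range 37 to 44 over single libraries left out) and LPD (42, 37 to 44), and on HFD (35, 30 to 41) became 23 with the mixed library as control ND and 23 with limma. Of the 32 lower on all 3 diets, 16 stayed lower on all 3 under all 32 settings. Counts that rose were less steady. The ND count of 9 became 2 with the mixed library, 3 with only the compared libraries, 4 without the 3 ND libraries of over 70% duplicates, 5 without mutant LPD 1, LPD 2 and HFD 1, and 2 with limma, and 4 to 10 with single libraries left out (4 without control ND 2 or 3). The HFD count of 1 became 0 with no filter on low counts, the mixed library, limma or without those 3 mutant libraries, 4 with only the compared libraries and 2 without the duplicate-rich ones, and 0 to 1 with single libraries left out. The LPD count of 4 became 2 with the mixed library, 8 without the duplicate-rich libraries, 1 without the 3 mutant libraries and 0 with limma, and 3 to 6 with single libraries left out.

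For HFD against ND in control cells, the count of 3 became 9 with the replicate block, 1 with library number (25 or above against below) as a term, 12 with only the compared libraries and 11 with DESeq2, and 0 to 8 with single libraries left out (0 without control ND 2, 8 without mutant ND 2, 6 without control ND 4 or control LPD 1, 5 without control LPD 4). In mutant cells the count of 5 became 0 with that term, the mixed library, only the compared libraries, limma or without the 3 mutant libraries, 1 without the duplicate-rich ones and 14 with DESeq2, and 0 to 10 with single libraries left out. LPD against ND gave 0 to 1 in control cells (1 without control LPD 1) and 0 to 11 in mutant cells, with 11 by DESeq2, and the HFD interaction gave 1 by DESeq2. The replicate block changed no other count by over 1.5 times, and whether the numbers pair the libraries is not known. Kcna6 on ND turned to a log2 fold change of -0.04 with the mixed library. Of 98 results for single genes, 67 kept their direction and call under every alternative and 31 lost the call under at least 1. The causes were not tested. Limma on FPKM moved the median of all genes on ND to -0.23, and genes under about 1 CPM rest on few counts.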

Other observations

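Control ND 1, the library of mixed genotype, entered no comparison. It had counts for 66 of the 129 channel genes, 56.8% of its counts on Gm26917 and 80.2% duplicate reads. CPM of total counts include Gm26917, so its values for other genes are lowered, and the intervals make no allowance for duplicates. In CPM of total counts Cacna1a had 54.5 (95% Poisson interval 51.7 to 57.6), where the medians were 10.8 in mutant ND and 317 in control ND libraries, and Cacna1h had 90.4 (86.7 to 94.3), where they were 24.4 and 303. Cacna2d1 had 10.4 (9.15 to 11.8), with medians of 4.94 in mutant ND and 122 in control ND libraries. Cacnb2 had 3.61 (2.90 to 4.45), where the medians were 7.41 in mutant ND and 35.1 in control ND libraries. Whether it would lie below both titles with Gm26917 left out was not tested.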
